A study of Mus musculus with 12 samples.

Results

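The genes described are 50 mouse genes of the early secretory pathway, named by a fixed list: the signal recognition particle and its receptor (8 genes), the Sec61 translocon and its partners (6), the translocon-associated protein complex (4), signal peptidase (5), oligosaccharyltransferase (7), the COPII coat (9), cargo and retrieval receptors (6) and the COPI coat (5). They are 50 of the 20018 named genes on the array. All 50 passed the filter on dim probes and were among the 12287 named genes tested. RNA of splenic B cells was hybridised to 12 one-colour Agilent arrays, 3 for each of 4 groups. The stimulated knockout group held B1-8hi:Sub1fl/fl-Mb1-Cre cells and the stimulated control group B1-8hi:Sub1fl/fl cells, both cultured for 72 h with the antigen NP-ficoll, CD40 ligand and the cytokines IL-4, IL-5 and IL-2. The resting knockout and resting control groups held naïve cells of the same genotypes. All 4 groups shared B1-8hi, an antibody heavy chain knock-in recognising the hapten NP, and floxed Sub1, which encodes the chromatin protein PC4. Only the knockout carried Mb1-Cre, a Cre recombinase active in the B lineage and inserted in Cd79a, so that effects of Cre, of the Cd79a insertion and of Sub1 loss cannot be told apart. The question the design puts is how Sub1 loss bears on the response of B cells to signals that drive plasma cell differentiation.

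Proteins destined for secretion are recognised by the signal recognition particle while still on the ribosome and are handed to its receptor on the endoplasmic reticulum (ER). They enter the ER lumen through the Sec61 channel, lose their signal peptide to signal peptidase and receive N-linked glycans from oligosaccharyltransferase. COPII coats then carry folded cargo from the ER to the Golgi, while COPI coats and KDEL receptors bring escaped ER proteins back. In B cells that become antibody-secreting plasma cells this machinery is known to expand, and the transcription factor XBP1 is known to induce many of its genes.

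Levels are given as the log2 of the processed signal relative to the 75th percentile of the non-control spots of the same array, so that 0 is the brightness of that percentile. A level belongs to its probe, and levels of different genes are not set against each other. The share of non-control spots well above background was 64.5%, 42.6% and 76.8% on stimulated knockout arrays, against 36.6%, 24.3% and 60.1% on stimulated control arrays, in replicate order. Each stimulated knockout array was thus above the control array of the same number. On resting arrays it was 40.5%, 48.1% and 76.6% for the knockout, against 41.8%, 52.9% and 64.1% for the control. The part of this difference in the results was not tested, and no spot was saturated. Of the 50 genes, 46 were well above background on all 12 arrays. Sec24a, Sec24d, Kdelr3 and Copg1 were not so on 1 to 3 arrays, and no group lacked them on every array. In stimulated cells Sub1 itself read 6.72, 6.87 and 6.92 on knockout arrays, against 8.19, 7.79 and 8.15 on control arrays, a log2 change of -1.21 (SE 0.19, adjusted p = 0.0114). In resting cells it read 5.37, 5.80 and 5.77 on knockout arrays, against 6.07, 6.02 and 6.0 on control arrays, a change of -0.38 (adjusted p = 0.268). Its signal was thus lower on every knockout array of the same state, but was not lost. Whether its probe lies in the deleted part is not given in the sources used here. Of 8 B cell markers, 7 were well above background on all stimulated control arrays and all 8 on all arrays of the other groups. Whether replicates of a group are different animals is not in the labels, and the p-values therefore speak only to the scatter of these samples, which may be technical. In bulk RNA, fewer cells of a type and less RNA per cell cannot be told apart.

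For the genes with the largest stimulated differences among those whose promoter could be shown from the RefSeq promoter table (build GRCm38.p6), it is given from 250 bases before the start to 50 bases from it on. Ssr2 and Kdelr2 have no entry there. The regions are chr3:123267246-123267545 on the plus strand for Sec24d, chr15:79516158-79516457 on the plus strand for Kdelr3, chr11:51756785-51757084 on the minus strand for Sec24a and chr7:99858834-99859133 on the minus strand for Spcs2. They are shown because these 4 genes had the largest estimated differences among the genes with an entry, in the COPII, retrieval receptor and signal peptidase groups described below. Capitals mark matches to the UPRE core TGACGTG, the core of an element bound by XBP1 and ATF6, and to CCACG, the short end of the ER stress elements, in either orientation. Each runs 5′ to 3′ on the strand of its gene.
Sec24d: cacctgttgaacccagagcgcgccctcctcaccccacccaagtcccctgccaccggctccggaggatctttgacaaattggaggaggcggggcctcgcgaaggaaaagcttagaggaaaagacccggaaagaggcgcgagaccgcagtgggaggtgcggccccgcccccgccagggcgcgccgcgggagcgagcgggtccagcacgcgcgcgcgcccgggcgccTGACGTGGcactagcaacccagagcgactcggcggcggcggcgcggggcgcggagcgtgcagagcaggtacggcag
Kdelr3: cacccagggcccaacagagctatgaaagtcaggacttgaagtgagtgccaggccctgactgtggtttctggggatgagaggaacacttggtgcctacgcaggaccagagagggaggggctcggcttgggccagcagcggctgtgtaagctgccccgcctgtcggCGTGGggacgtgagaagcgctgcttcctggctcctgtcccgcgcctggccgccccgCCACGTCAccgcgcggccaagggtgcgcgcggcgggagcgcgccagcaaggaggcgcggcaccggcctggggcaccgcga
Sec24a: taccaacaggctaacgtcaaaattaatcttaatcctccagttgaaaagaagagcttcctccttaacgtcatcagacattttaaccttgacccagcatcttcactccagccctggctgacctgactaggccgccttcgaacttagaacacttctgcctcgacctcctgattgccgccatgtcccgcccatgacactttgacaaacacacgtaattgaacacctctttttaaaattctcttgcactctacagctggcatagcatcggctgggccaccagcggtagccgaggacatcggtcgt
Spcs2: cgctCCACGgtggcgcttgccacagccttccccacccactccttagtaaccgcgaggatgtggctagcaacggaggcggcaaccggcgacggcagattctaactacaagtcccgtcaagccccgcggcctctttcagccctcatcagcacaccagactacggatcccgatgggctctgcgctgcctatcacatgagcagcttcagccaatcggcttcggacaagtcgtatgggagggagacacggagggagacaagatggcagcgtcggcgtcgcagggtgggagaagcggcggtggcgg

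In Sec24d the UPRE core begins 26 bases before the start, and a CCACG match on the other strand overlaps it. In Kdelr3 the core lies 29 bases before the start on the reverse strand, overlapped by a CCACG match, and a second such match lies 86 bases before. Spcs2 holds 1 CCACG match 246 bases before the start, and Sec24a holds none of the motifs. Of the 50 genes 40 had an entry, with 43 promoters. The UPRE core was present in 5 of the 40 genes, namely Copb1, Copb2, Kdelr3, Sec24d and Srpr, or 11.6% of the 43 promoters, against 2.01% of all 32851 promoters of the same length. The short motif CCACG was present in 62.8% of the 43, against 32.8% of all. The full ER stress elements ERSE, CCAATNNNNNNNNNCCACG, and ERSE-II, ATTGGNCCACG, were in none of the 43, against 0.119% and 0.0365% of all. Both strands were searched in each case. The members' promoters had a median GC content of 58.7%, against 52.7% over all, and a motif match describes letters in this window only.

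In stimulated cells the knockout had a lower mean signal than the control for every one of the 50 genes, and the difference passed the threshold (limma, Benjamini-Hochberg adjusted p under 0.05 over 22972 features) for 30 of them, all lower. Over all features 2.26% were called lower and 3.47% in either direction. The median log2 change of the 50 genes was -1.09, a 2.14-fold lower signal. Over all features the median was -0.02, with 25th to 75th percentiles from -0.36 to 0.56. The size depends on the scaling. For the 50 genes the median was -1.65 with scaling to the array median and -0.68 with quantile normalization. With the percentile of spots detected on all arrays it was -0.69. A fit with only features well above background on all 12 arrays kept 46 of the 50 genes. Their median was -1.07, against -0.31 over all features of that fit. Called genes were 1.86-fold to 3.90-fold lower, from Dad1 to Sec24d. On 44 of the 50 genes every knockout array lay below every control array, which held for 14.1% of all features. The sign was negative on both array slides for all 50, with medians of -1.11 and -1.13. Calls reached into each of the 8 groups of genes, from 4 of 4 genes of the translocon-associated protein complex to 1 of 5 genes of the COPI coat. On the same knockout arrays 5 of 11 myeloid and 3 of 6 natural killer cell markers were called higher, with medians of 2.30 and 2.35, as given with the markers below, and their part in the result was not tested. The calls depended on single arrays. The 30 fell to 3 without stimulated knockout replicate 2 and to 5 without stimulated control replicate 1. They fell to 6 and 12 without stimulated knockout replicates 1 and 3. With both replicate 1 arrays of the control genotype left out they fell to 0. Calls over all features fell in the same runs, from 796 to 143, 156, 162, 289 and 60. In these runs 40 to 45 of the 50 genes had an unadjusted p under 0.05, against 3208 to 4554 of all features. The direction stayed lower for all 50 genes without any 1 array. The 30 calls also fell to 0 with only these 2 groups in the fit or with no filter on dim probes, and to 19 with quantile normalization. Over all features 0, 56 and 548 were called there.

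**Figure D1:**
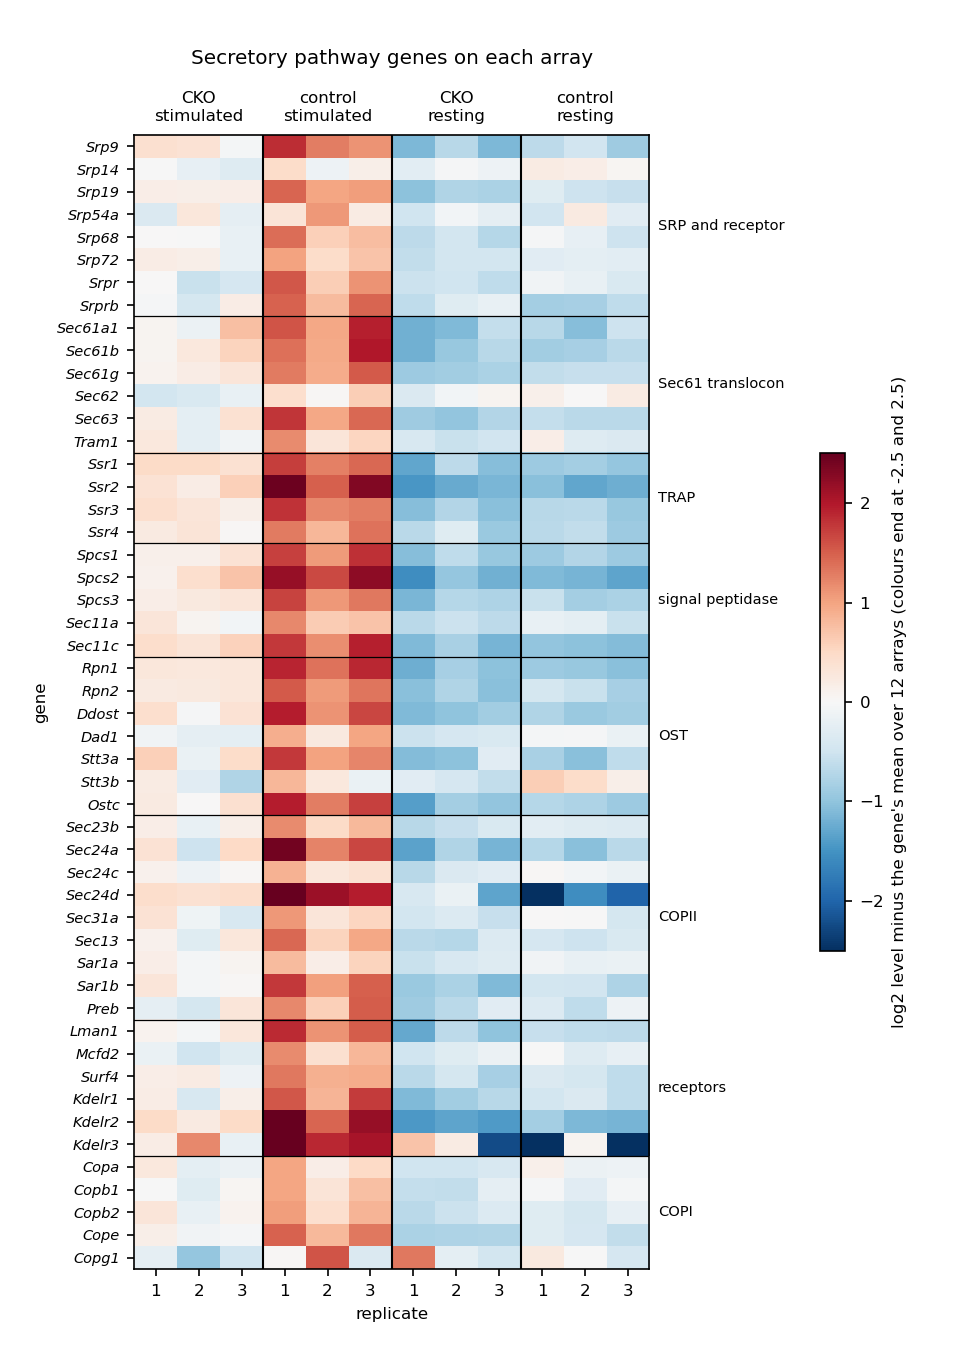
Heat map of the 50 genes (rows, grouped by role) on the 12 arrays (columns, by group and replicate). CKO is the knockout, SRP the signal recognition particle, TRAP the translocon-associated protein complex and OST oligosaccharyltransferase. Colour is the log2 level minus that gene's mean over the 12 arrays; colours end at -2.5 and 2.5. The stimulated control columns are high for nearly all rows, and for most rows the stimulated knockout columns lie between these and the resting columns. Exceptions include Srp14, Sec62, Stt3b and Copg1, whose stimulated knockout mean lay below the resting control mean.

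By the median of the 50 genes the same difference was seen array by array. The median level, centred for each gene on its mean over the 12 arrays, was 0.18, -0.05 and 0.15 on the stimulated knockout arrays, against 1.47, 0.94 and 1.30 on the stimulated control arrays. It was -0.74, -0.65 and -0.71 on resting knockout arrays, against -0.46, -0.50 and -0.62 on resting control arrays. The lowest stimulated control array, replicate 2, stood well above the highest stimulated knockout array. The median SD over the 50 genes was 0.19 for stimulated knockout and 0.39 for stimulated control arrays, and 0.19 for resting knockout and 0.14 for resting control arrays, so the spread was widest in the stimulated control group.

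**Figure D2:**
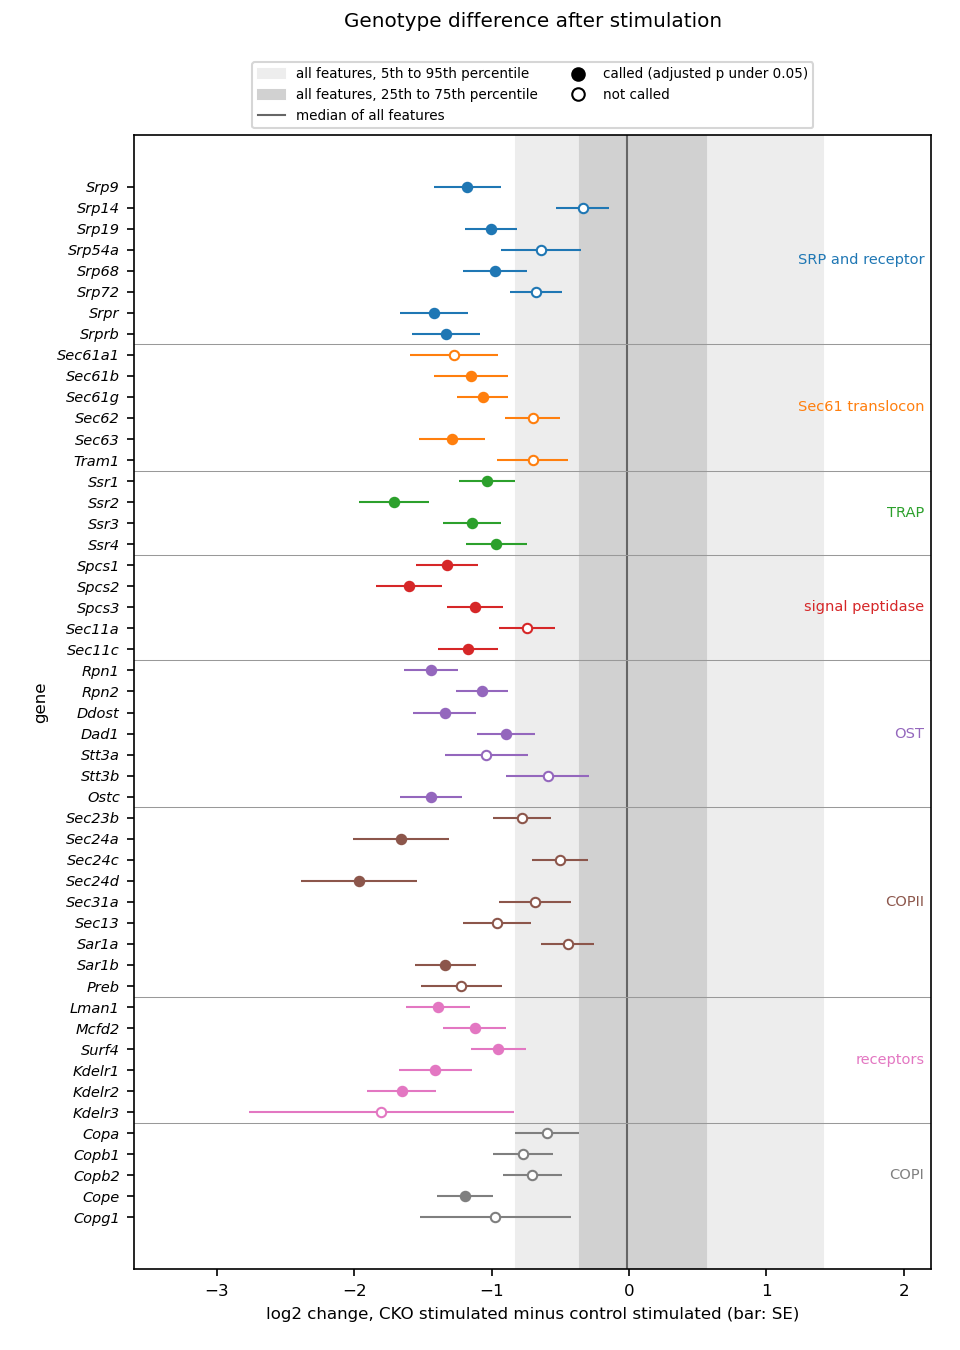
Log2 change, stimulated knockout minus stimulated control, for the 50 genes by role, with standard errors from the limma fit. Filled points are the 30 genes called and grey bands show the 5th to 95th percentiles (pale, -0.82 to 1.41) and the 25th to 75th percentiles (-0.36 to 0.56) over 22972 features. All 50 points lie below 0.

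Among the 8 genes of the signal recognition particle and its receptor, 5 were called lower and the median change was -0.99. The largest changes were in the receptor. Srpr, its GTPase subunit that docks the particle, read 2.19, 1.64 and 1.78 in stimulated knockout cells, against 3.74, 2.81 and 3.32 in stimulated control cells, a change of -1.42 (SE 0.25, adjusted p = 0.0166). Srprb, the membrane-anchored subunit, read 0.49, 0.08 and 0.70 in stimulated knockout cells, against 1.99, 1.30 and 1.97 in stimulated control cells, a change of -1.33 (SE 0.25, adjusted p = 0.0197). For both subunits every knockout array lay below every control array. Srp9, which pauses translation together with Srp14, read 4.23, 4.19 and 3.78 in stimulated knockout cells, against 5.68, 5.11 and 4.95 in stimulated control cells, with no overlap and a change of -1.18 (SE 0.24, adjusted p = 0.0292). Its partner Srp14 had the smallest estimate of the 50 genes, at -0.34 (adjusted p = 0.316). Its values overlapped, at 4.61, 4.41 and 4.29 in stimulated knockout cells and 5.07, 4.49 and 4.76 in stimulated control cells. In this comparison Srp14 was also the only gene of the 50 whose sign turned with the scaling. It stood at 0.07 with quantile normalization and with the percentile of spots detected on all arrays. The RNA-binding subunits Srp19 and Srp68 were called, at -1.0 (adjusted p = 0.0197) and -0.98 (adjusted p = 0.0479). Srp72, at -0.68 (adjusted p = 0.0828), and Srp54a, which binds the signal peptide, at -0.64 (adjusted p = 0.23), were not. Mice have near-identical copies of Srp54, which a probe may not tell apart. The probe named for the copy Srp54b stood at 0.56 and was not called, and the second Srp54a probe gave -0.24.

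Of the 6 genes of the Sec61 channel and its partners 3 were called lower, with a median change of -1.11. Sec63, a membrane J-domain protein that recruits the lumenal chaperone BiP to the channel, read 0.85, 0.39 and 1.01 in stimulated knockout cells, against 2.43, 1.61 and 2.08 in stimulated control cells, a change of -1.29 (SE 0.24, adjusted p = 0.0197). The small channel subunit Sec61b read 6.54, 6.72 and 7.03 in stimulated knockout cells, against 7.84, 7.42 and 8.47 in stimulated control cells, a change of -1.15 (SE 0.27, adjusted p = 0.0461). The other small subunit, Sec61g, read 6.16, 6.26 and 6.37 in stimulated knockout cells, against 7.38, 7.0 and 7.60 in stimulated control cells, a change of -1.07 (SE 0.18, adjusted p = 0.016). None of the 3 genes overlapped between the genotypes. Sec61a1, which forms the pore, had an estimate of similar size but missed the threshold, at -1.28 (SE 0.32, adjusted p = 0.0585). Sec62, which works with Sec63, and Tram1, which sits beside the channel, stood at -0.70 (adjusted p = 0.0921) and -0.70 (adjusted p = 0.158).

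All 4 genes of the translocon-associated protein complex, which contacts the channel and aids entry of some signal peptides, were called lower, with a median change of -1.09. Ssr2 changed most, reading 4.18, 3.98 and 4.4 in stimulated knockout cells, against 6.25, 5.31 and 6.12 in stimulated control cells, a change of -1.71 (SE 0.25, adjusted p = 0.0103). Ssr3 read 4.58, 4.46 and 4.31 in stimulated knockout cells, against 5.97, 5.35 and 5.45 in stimulated control cells, a change of -1.14 (SE 0.21, adjusted p = 0.0197). Ssr1 read 5.04, 5.03 and 4.94 in stimulated knockout cells, against 6.29, 5.83 and 5.99 in stimulated control cells, a change of -1.03 (SE 0.20, adjusted p = 0.025). In each of them the lowest control value, always replicate 2, was above the highest knockout value. Ssr4 changed by -0.96 (adjusted p = 0.0431).

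Signal peptidase had 4 of its 5 genes called lower, with a median of -1.17. The accessory subunit Spcs2 read 4.44, 4.75 and 5.04 in stimulated knockout cells, against 6.52, 5.97 and 6.56 in stimulated control cells, a change of -1.60 (SE 0.24, adjusted p = 0.0105). Its second probe, also well above background on all 12 arrays, gave -0.59. Spcs1, another accessory subunit, read 5.83, 5.84 and 6.08 in stimulated knockout cells, against 7.42, 6.78 and 7.53 in stimulated control cells, a change of -1.32 (SE 0.22, adjusted p = 0.015). Spcs3 changed by -1.12 (adjusted p = 0.0192). The enzyme has alternative catalytic subunits, Sec11a and Sec11c. Sec11c read 4.69, 4.59 and 4.84 in stimulated knockout cells, against 6.02, 5.42 and 6.20 in stimulated control cells, a change of -1.17 (SE 0.22, adjusted p = 0.0203). Sec11a read 5.15, 4.90 and 4.77 in stimulated knockout cells, against 6.03, 5.47 and 5.54 in stimulated control cells, a change of -0.74 (SE 0.21, adjusted p = 0.0813). Neither gene overlapped between the genotypes, though only Sec11c passed, and the difference between the pair was not tested.

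**Figure D3:**
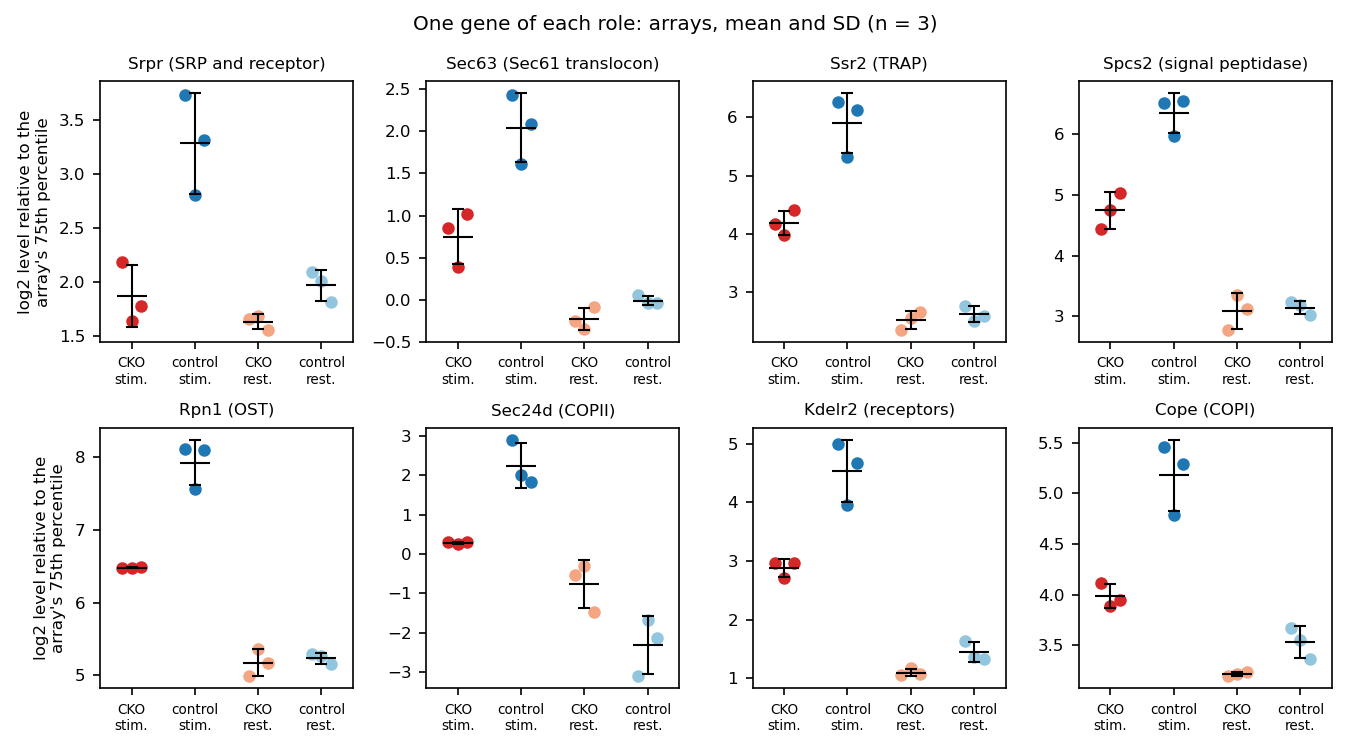
Log2 level of 8 genes, 1 from each role, on the 3 arrays of each group (points) with the mean and SD (bars). In all 8 panels the stimulated control points lie above the stimulated knockout points, and in the Sec24d panel the resting knockout points lie above the resting control points.

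Oligosaccharyltransferase had 5 of its 7 genes called lower, with a median of -1.07. Rpn1, a large ER-membrane subunit, had the smallest adjusted p of the 50 genes. It read 6.48, 6.47 and 6.49 in stimulated knockout cells, against 8.11, 7.56 and 8.09 in stimulated control cells, a change of -1.44 (SE 0.19, adjusted p = 0.00635). The 3 knockout arrays lay within a few hundredths of each other, while the control arrays were spread more widely above them. Ostc, which links the Stt3a form of the enzyme to the translocon, read 4.13, 3.93 and 4.32 in stimulated knockout cells, against 5.88, 5.19 and 5.63 in stimulated control cells, a change of -1.44 (SE 0.23, adjusted p = 0.0118). Ddost, a scaffold subunit, read 4.26, 3.82 and 4.20 in stimulated knockout cells, against 5.81, 4.98 and 5.52 in stimulated control cells, a change of -1.34 (SE 0.23, adjusted p = 0.0154). Neither overlapped. Rpn2 and Dad1 changed by -1.07 (adjusted p = 0.0174) and -0.89 (adjusted p = 0.0467). The catalytic subunits Stt3a, which glycosylates during entry, and Stt3b, which acts on sites that were skipped, were not called. Stt3a read 0.99, 0.22 and 0.86 in stimulated knockout cells, against 2.16, 1.41 and 1.62 in stimulated control cells, without overlap, a change of -1.04 (SE 0.30, adjusted p = 0.0932). Stt3b read 3.70, 3.20 and 2.75 in stimulated knockout cells, against 4.33, 3.76 and 3.34 in stimulated control cells, with overlap, a change of -0.59 (SE 0.30, adjusted p = 0.273).

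Of the 9 COPII genes, which drive export from the ER, 3 were called lower, with a median of -0.96. Sec24 proteins are the coat subunits that pick cargo. Sec24d read 0.30, 0.25 and 0.30 in stimulated knockout cells, against 2.90, 2.0 and 1.84 in stimulated control cells, a change of -1.96 (SE 0.42, adjusted p = 0.0325), or 3.9-fold lower. Its knockout arrays were nearly equal and its control arrays all stood above them. Sec24a read 0.14, -0.74 and 0.28 in stimulated knockout cells, against 2.19, 1.02 and 1.44 in stimulated control cells, a change of -1.66 (SE 0.35, adjusted p = 0.0301). Sec24c read 5.63, 5.39 and 5.55 in stimulated knockout cells, against 6.38, 5.80 and 5.90 in stimulated control cells, a change of -0.50 (SE 0.20, adjusted p = 0.185). The 3 Sec24 genes were thus all lower without overlap, by 3.9-fold for Sec24d, 3.16-fold for Sec24a and 1.42-fold for Sec24c, and Sec24c did not pass. Over 25 alternatives Sec24c ran from -1.06 to -0.10 and was called in none. Differences between the Sec24 genes were not tested. The GTPase that starts coat assembly has paralogs with unlike values too. Sar1b read 2.88, 2.54 and 2.61 in stimulated knockout cells, against 4.35, 3.62 and 4.08 in stimulated control cells, a change of -1.34 (SE 0.22, adjusted p = 0.0129). Sar1a read 4.80, 4.59 and 4.71 in stimulated knockout cells, against 5.44, 4.81 and 5.19 in stimulated control cells, a change of -0.45 (SE 0.19, adjusted p = 0.207). A second, dimmer Sar1a probe gave -0.98, so the size of its change depends on the probe. Preb, the exchange factor that loads Sar1, stood at -1.22 (adjusted p = 0.0507), just outside the threshold. The coat subunits Sec23b, Sec13 and Sec31a ranged from -0.96 for Sec13 to -0.68 for Sec31a, with adjusted p from 0.0647 to 0.171.

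The cargo and retrieval receptors had 5 of 6 genes called lower and, at -1.40, the most negative median of the 8 groups. Lman1, a lectin that carries glycoproteins from the ER, read 3.49, 3.34 and 3.68 in stimulated knockout cells, against 5.25, 4.51 and 4.90 in stimulated control cells, a change of -1.39 (SE 0.23, adjusted p = 0.014). Its partner Mcfd2 changed by -1.12 (adjusted p = 0.0271) and Surf4, another cargo receptor, by -0.95 (adjusted p = 0.0293). KDEL receptors return lumenal chaperones that carry the KDEL signal. Kdelr2 read 2.97, 2.71 and 2.97 in stimulated knockout cells, against 4.99, 3.96 and 4.67 in stimulated control cells, a change of -1.65 (SE 0.25, adjusted p = 0.0106). Kdelr1 read 1.46, 0.88 and 1.43 in stimulated knockout cells, against 2.84, 2.14 and 3.03 in stimulated control cells, a change of -1.41 (SE 0.26, adjusted p = 0.0199). Lman1, Kdelr1 and Kdelr2 did not overlap between the genotypes. Kdelr3 read -1.55, -0.54 and -1.92 in stimulated knockout cells, against 0.93, 0.14 and 0.33 in stimulated control cells, a change of -1.80 (SE 0.96, adjusted p = 0.29). Its groups did not overlap either, but its fit had a standard error of about the size of the called changes, and its resting values spread over several log2 units.

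COPI, the coat of retrograde vesicles, had 1 of 5 genes called, with a median of -0.77. Cope, a subunit of its outer layer, read 4.12, 3.89 and 3.95 in stimulated knockout cells, against 5.46, 4.78 and 5.30 in stimulated control cells, a change of -1.19 (SE 0.20, adjusted p = 0.0148) without overlap. The subunits Copb1, Copb2 and Copa were not called, at -0.77 (adjusted p = 0.0872), -0.70 (adjusted p = 0.103) and -0.60 (adjusted p = 0.179). Copg1 stood at -0.97 (SE 0.55, adjusted p = 0.314). It was not well above background on 1 stimulated knockout array, and its second probe gave 0.29. Further probes that entered the fit numbered 23, for 21 of the 50 genes, and 22 of the 23 had the sign of the probe used in this comparison, that of Copg1 being the exception. With the mean of all kept probes of a gene 27 genes were called. Sec63, Ssr1, Spcs2 and Sec24a then lost their calls, at -1.07, -0.59, -1.10 and -1.16 with limma's adjusted p of 0.11, 0.19, 0.0885 and 0.0856.

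With stimulation, control cells raised most of this machinery. Of the 50 genes 43 were called higher in stimulated than in resting control cells and none lower, against 14.7% of all features called higher, 13.1% lower and 27.9% in either direction. The median log2 change was 1.85, against 0.04 over all features, with slide medians of 1.67 and 1.98. Called genes were 1.57-fold to 23.5-fold higher, and on 45 genes the groups did not overlap, against 20.3% of all features. The count stayed between 32 and 45 in every alternative run, with Srp14 called lower under quantile normalization and under the percentile of spots detected on all arrays.

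The largest rise was that of Sec24d, which read 2.90, 2.0 and 1.84 in stimulated control cells, against -3.11, -1.68 and -2.13 in resting control cells, a change of 4.56 (SE 0.42, adjusted p = 3.26e-05). Kdelr3 read 0.93, 0.14 and 0.33 in stimulated control cells, against -4.51, -1.66 and -5.53 in resting control cells, a change of 4.37 (SE 0.96, adjusted p = 0.0062). On resting control arrays Sec24d was well above background on 2 of 3 and Kdelr3 on 1 of 3, so the size of both rises rests in part on dim readings. Ssr2 read 6.25, 5.31 and 6.12 in stimulated control cells, against 2.77, 2.5 and 2.59 in resting control cells, a change of 3.27 (SE 0.25, adjusted p = 1.42e-05). Spcs2 read 6.52, 5.97 and 6.56 in stimulated control cells, against 3.23, 3.18 and 3.02 in resting control cells, a change of 3.21 (SE 0.24, adjusted p = 1.19e-05). None of these 4 genes overlapped between the states. By role the median change was 2.38 for signal peptidase, 2.30 for the translocon-associated complex, 2.16 for oligosaccharyltransferase, 1.99 for the receptors, 1.94 for Sec61 and partners, 1.42 for COPII, 1.24 for the signal recognition particle and 0.81 for COPI. All genes of signal peptidase, the translocon-associated complex and the receptors were called. The 7 genes not called were Srp14, Srp54a, Sec62, Stt3b, Sec24c, Copa and Copg1, with changes from -0.09 for Stt3b to 0.72 for Srp54a. The size of some of these changes depends on the probe. Of the 23 further kept probes, 18 had the sign of the probe used. The others were -0.47 for Sec63 and -0.33 for Sec24a, both called here, -0.28 for Srp54a, -0.10 for Copg1 and 1.39 for Stt3b. A second Sec24a probe gave 3.31. The second Spcs2 probe, well above background on all 12 arrays, gave 0.42, and with the mean of both probes Spcs2 stood at 1.81 with its call kept.

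Knockout cells raised part of it. Of the 50 genes 27 were called higher in stimulated than in resting knockout cells and none lower, against 10.9% of all features called higher, 5.2% lower and 16.1% in either direction. The median change was 0.83, against 0.10 over all features, and called genes were 1.65-fold to 3.45-fold higher. Groups did not overlap on 38 genes, against 21.9% of all features. All genes of the translocon-associated complex (4 of 4, median 1.35) and of signal peptidase (5 of 5, median 1.12) were called, with 5 of 7 of oligosaccharyltransferase (1.19), 4 of 6 of Sec61 and partners (1.01) and 4 of 6 receptors (0.85). Of the signal recognition particle and receptor 2 of 8 were called (median 0.41), of COPII 2 of 9 (0.59) and of COPI 1 of 5 (0.42). With scaling to the array median the count was 6, and with no filter on dim probes 12. Srp14 and Sec62 were called lower under quantile normalization and under the percentile of detected spots.

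Kdelr2 rose most, reading 2.97, 2.71 and 2.97 in stimulated knockout cells, against 1.05, 1.17 and 1.07 in resting knockout cells, a change of 1.79 (SE 0.25, adjusted p = 0.000884). Ssr2 read 4.18, 3.98 and 4.4 in stimulated knockout cells, against 2.36, 2.55 and 2.66 in resting knockout cells, and rose by 1.67 (SE 0.25, adjusted p = 0.00141). Spcs2 read 4.44, 4.75 and 5.04 in stimulated knockout cells, against 2.78, 3.36 and 3.13 in resting knockout cells, and rose by 1.66 (SE 0.24, adjusted p = 0.00108). All 3 were also among the largest rises in control cells. Sec24d, the largest rise in control cells, read 0.30, 0.25 and 0.30 in stimulated knockout cells, against -0.53, -0.30 and -1.46 in resting knockout cells, and its change of 1.05 (SE 0.42, adjusted p = 0.131) was not called. Both receptor subunits of the signal recognition particle were not called either. Srpr read 2.19, 1.64 and 1.78 in stimulated knockout cells, against 1.66, 1.68 and 1.55 in resting knockout cells, a change of 0.24 (SE 0.25, adjusted p = 0.632). Srprb read 0.49, 0.08 and 0.70 in stimulated knockout cells, against -0.13, 0.22 and 0.33 in resting knockout cells, a change of 0.28 (SE 0.25, adjusted p = 0.552). In control cells the same genes rose by 1.32 and 2.02. In knockout cells 19 of the 23 further kept probes had the sign of the probe used, the others being those of Srp54a, Srprb, Sec63 and Ssr1, and the second Spcs2 probe gave 0.32.

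**Figure D4:**
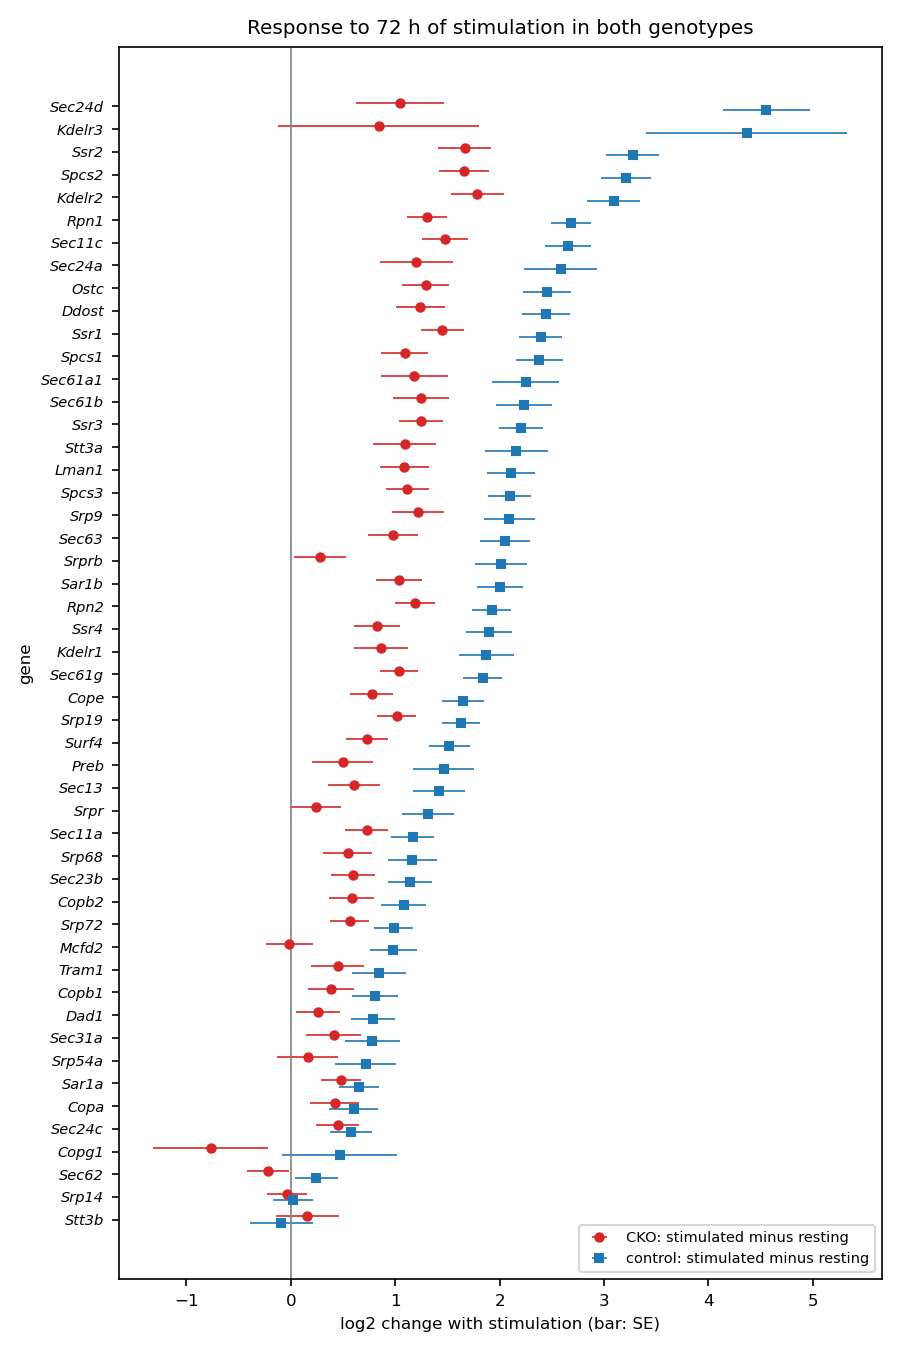
Log2 change with stimulation of each of the 50 genes in knockout and in control cells, with genes sorted by the control value. Knockout points lie below control points for 49 genes, the exception being Stt3b, and the gap is widest for Sec24d and Kdelr3.

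The test of the difference between these responses is the interaction of genotype and stimulation. None of the 50 genes was called by limma, against 0.144% of all features, or 33. At an unadjusted p under 0.05 the count was 33 of 50, against 2445 of all 22972 features, or 10.6%. The estimate was negative for 49 of 50, with a median of -0.96, against 0.08 over all features. The lowest adjusted p values were those of Sec24d at -3.51 (SE 0.60, adjusted p = 0.0614) and Rpn1 at -1.38 (SE 0.28, adjusted p = 0.0862), followed by Srprb at -1.73 (SE 0.35, adjusted p = 0.0887). Kdelr3 had an estimate of similar size to Sec24d but a wide error, at -3.52 (SE 1.36, adjusted p = 0.377). So a smaller rise in knockout cells was seen in the estimates of nearly all genes and was not shown for any single one. Between 1 and 11 genes, all lower, were called under 7 other settings, with 11 when the scaling percentile was taken over spots detected on all arrays, and 6 were called without stimulated control replicate 2.

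Resting cells showed no called difference. None of the 50 genes was called by limma between resting knockout and resting control cells, against 0.0131% of all features, and 2 had an unadjusted p under 0.05, against 4533 of all 22972 features, or 19.7%. The median change was -0.24, close to the -0.21 of all features. It was 0.08 with quantile normalization and 0.11 with the percentile of spots detected on all arrays, so its direction depends on the scaling. Groups did not overlap, with knockout lower, on 18 of the 50 genes, against 26.9% of all features. Sec24d was the only gene without overlap whose knockout arrays were higher, at -0.53, -0.30 and -1.46 in resting knockout cells, against -3.11, -1.68 and -2.13 in resting control cells, a change of 1.55 (SE 0.42, adjusted p = 0.185). Such an arrangement held for 9.8% of all features. Stt3b was lower without overlap, at 3.22, 3.09 and 2.88 in resting knockout cells, against 4.10, 3.95 and 3.64 in resting control cells, a change of -0.84 (SE 0.30, adjusted p = 0.224). Among the other paralogs, Sec24a, Sec24c, Sar1a, Sar1b, Sec11a, Sec11c, Stt3a, Kdelr1 and Kdelr2 had changes from -0.40 for Kdelr1 to 0.03 for Stt3a, and Kdelr3 stood at 1.72 (SE 0.96, adjusted p = 0.295).

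Other genes of the pathway were read from lists that hold none of the 50. In stimulated cells the ER chaperones and degradation factors had 16 of 29 genes called lower, with a median of -1.11. Among them the lumenal proteins Creld2 and Manf changed by -1.68 (adjusted p = 0.0155) and -1.63 (adjusted p = 0.0057). Enzymes that build and trim the N-glycan precursor had 7 of 31 called lower (median -0.72), with Mogs, which trims the first glucose, at -1.29 (adjusted p = 0.0114) and Gmppb, which makes GDP-mannose, at -1.28 (adjusted p = 0.0197). Other ER-to-Golgi coat and tether genes had 8 of 31 called lower (median -0.62), with Arfgap3, which acts on the Arf GTPase of COPI, at -1.53 (adjusted p = 0.0129) and Ergic1 at -1.24 (adjusted p = 0.0431). Other translocation genes had 5 of 22 called lower (median -0.34), with the oligosaccharyltransferase subunit Krtcap2 at -1.33 (adjusted p = 0.0114) and Tram2, a relative of Tram1, at -1.15 (adjusted p = 0.048). Clathrin and its adaptors, which work after the Golgi, had 0 of 16 called by limma, 4 with an unadjusted p under 0.05, against 22.1% of all features, and a median of -0.30. The background rate for all of these is the 2.26% given above, and no gene of these lists was called higher. The estimate was negative for all 16 clathrin and adaptor genes, 30 of 31 N-glycan genes and 28 of 31 coat and tether genes. It was negative for 27 of 29 chaperone and degradation genes, 18 of 22 other translocation genes and 11715 of 22972 features. The medians of the clathrin and the other translocation genes, -0.30 and -0.34, both lay close to the -0.31 over features well above background on all 12 arrays. That value comes from the fit with that filter, and the list medians from the main fit. Whether the lists differ from each other was not tested.

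**Figure D5:**
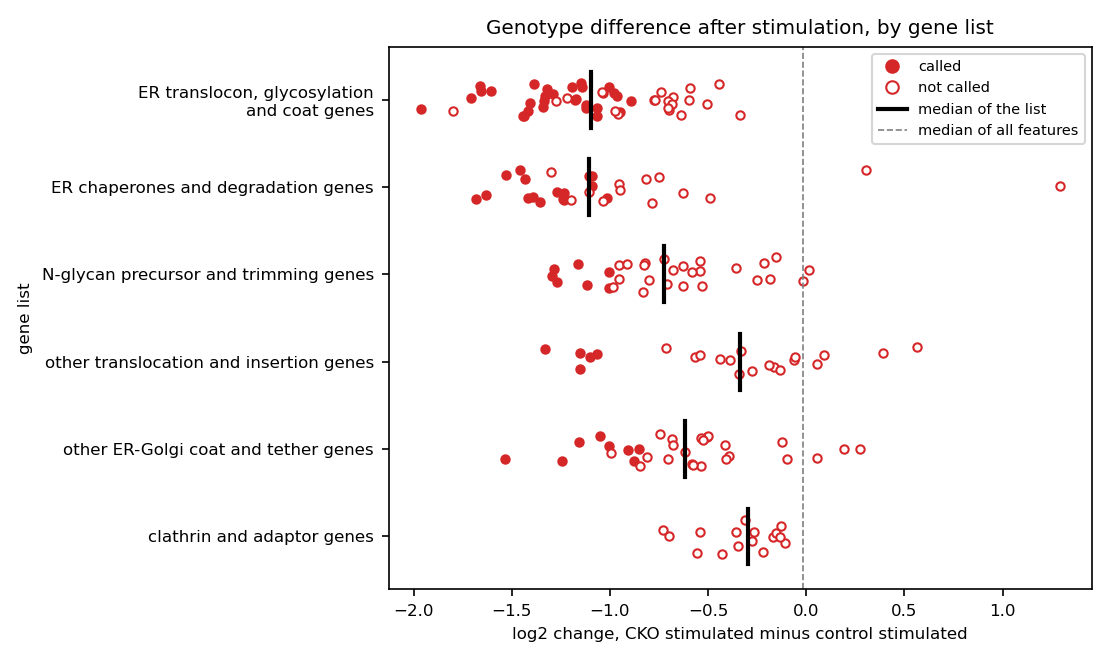
Log2 change, stimulated knockout minus stimulated control, for each gene of the 50 and of 5 other lists (1 point per gene, filled where called). Medians run from -1.11 for ER chaperones and degradation factors and -1.09 for the 50 genes to -0.30 for clathrin and its adaptors.

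Regulators and markers moved beside them. Over all features 2.26% were called lower, which is the share to set beside each list here. Regulators of the unfolded protein response had 3 of 11 genes called lower (median -0.55), with Creb3l2 at -1.40 (adjusted p = 0.0496) and Atf4 at -0.96 (adjusted p = 0.0209). Xbp1 read 7.34, 7.34 and 7.59 in stimulated knockout cells, against 8.42, 8.08 and 8.56 in stimulated control cells, a change of -0.93 (SE 0.22, adjusted p = 0.0498). The plasma cell factors Irf4 and Prdm1 changed by -1.44 (adjusted p = 0.0114) and -1.42 (adjusted p = 0.0197). Of 10 plasma cell genes 7 were called lower (median -1.43), led by Tnfrsf17, the BCMA receptor, at -3.61 (adjusted p = 0.0192), well above background on 2 of 3 stimulated knockout arrays, and the antibody joining chain Jchain at -2.45 (adjusted p = 0.0179). Of 8 B cell markers 2 were called lower, Cd79a at -1.10 (adjusted p = 0.0343), the gene that carries Mb1-Cre, and Fcer2a at -1.01 (adjusted p = 0.042), with a list median of 0.04.

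Some markers of other cells were called higher in stimulated knockout cells. Of 11 myeloid markers 5 were called higher and none lower (median 2.30), against 1.21% of all features called higher. They were led by the complement gene C1qc at 4.01 (adjusted p = 0.00261), which was well above background on only 1 of 3 stimulated control arrays. Of 6 natural killer cell markers 3 were called higher (median 2.35), with the granzymes Gzmb at 3.14 (adjusted p = 0.00553) and Gzma at 3.1 (adjusted p = 0.0346). Of 8 T cell markers 1, Cd3g, was called higher, and of 3 erythroid markers 1, Hba-a1. The summed linear level, relative to the 75th percentile, was 41.0 to 48.8 for myeloid markers on stimulated knockout arrays, against 13.1 to 29.2 on stimulated control arrays. It was 209 to 410 for natural killer markers in stimulated knockout cells, against 31.8 to 32.6 in stimulated control cells. Nearly all of that sum was Gzma and Gzmb, which made up 204 to 399 of it in stimulated knockout cells, against 28.1 to 31.4 in stimulated control cells. The other 6 markers on the array summed to 3.98 to 10.9 in stimulated knockout cells, against 1.14 to 3.62 in stimulated control cells. In resting control cells both granzymes summed to 0.384 to 2.66, so they were also higher in stimulated than in resting control cells. For T cell markers the ranges were 7.32 to 13.5 in stimulated knockout cells and 4.66 to 10.2 in stimulated control cells. The B cell markers summed to 532 to 646 in stimulated knockout cells, against 492 to 692 in stimulated control cells. Markers not well above background on any stimulated control array included C1qa, S100a8, Mpo, Cd8a, Cd8b1, Klrd1, Klrk1, Hba-a1 and Alas2. In resting cells the myeloid markers summed to 114 to 166 on knockout arrays, against 59.3 to 90.7 on control arrays. Natural killer markers summed to 3.77 to 7.41 in resting knockout cells, against 2.68 to 4.49 in resting control cells. The B cell markers went the other way without overlap, at 656 to 780 in resting knockout cells, against 889 to 1023 in resting control cells. The part of other cells in the results on the 50 genes was not tested.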

How the data were processed

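RNA of 12 samples (4 groups, 3 each) was measured on one-colour Agilent arrays of 62976 spots, 59305 of them non-control. The deposited values are spot intensities (processed signals, background-corrected by Feature Extraction, version 10.7.3.1 per the file headers and 9.1 per the submitters' processing notes). The values of the deposited series matrix differ from these intensities by at most 0.497%. Here each array's log2 processed signal was set relative to its 75th percentile over non-control spots. Outlier spots were left missing (330 values in the tested table), and a probe took the mean of its spots. A probe entered the fit if some group had it well above background on each of its 3 arrays. Of 55681 non-control probes, 26413 were named through RefSeq accessions, and the brightest probe stood for a gene, leaving 12287 named genes and 10685 unnamed probes. These 22972 features were fitted with limma 3.58.1 in R 4.3.3 (4 group means, 8 residual degrees of freedom, Benjamini-Hochberg over all features, threshold 0.05), a step tested on simulated data. For arrays, their number limits the precision.

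The 50 genes, the other lists and the tests were chosen with earlier results of these data known. Values on every array are given for up to 3 called genes per role with the largest stimulated change, the 4 largest rises with stimulation over both genotypes, the 2 lowest p in the resting and interaction tests, and paralogs of a role. Replicates 1 and 2 of every group lay on slide 1 and replicate 3 on slide 2. Deviations of same-numbered samples correlated at 0.33 to 0.48 between the stimulated groups and at 0.42 to 0.51 between the control groups, all above 0.1. By this rule alone the numbers were taken to pair these samples, which the labels do not state. The correlations ran from -0.12 to 0.39 between the resting groups and from 0.00 to 0.39 between the knockout groups, which were not taken as paired. In each comparison the highest was that of replicate 3, the replicate on slide 2. The part of the slide in these correlations was not tested. The main fit held no pairing, which entered only as an alternative. Alternatives changed the scaling, background correction (normexp, offset 50), dim-probe filter, probe rule, blocks, samples and variance prior. The summed level of the erythroid markers is not reported here.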

Additional observations from a re-analysis of the deposited data

Results flagged for a closer look

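Sec24d was flagged because its genotype difference ran opposite ways in the 2 states. Opposite signs alone were not particular to it. Of the 50 genes 7 had a positive resting estimate, and all 50 a negative stimulated one. Kdelr3 stood at 1.72 at rest and -1.80 after stimulation, but its resting groups overlapped. For Sec24d every stimulated knockout array lay below every stimulated control array, while every resting knockout array lay above every resting control array. The difference between the changes was -3.51 on the log2 scale (SE 0.60), with slide values of -4.16 and -2.21, and its adjusted p in limma was 0.0614. Over 23 alternatives this value ran from -3.86 to -2.08 with adjusted p from 0.00392 to 0.357, and it was called in 6 of them. The resting difference of 1.55 ran from 0.61 to 1.90 over 24 alternatives and was called in none. Sec24d was not well above background on 1 of the 3 resting control arrays. Groups of 3 arrays were too small for the check of single outlying samples.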

How the results depend on the processing

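In stimulated cells the 30 calls between the genotypes became 19 with quantile normalization, 0 with no filter on dim probes (41 genes at an unadjusted p under 0.05), 0 with only these 2 groups in the fit (41) and 0 with both replicate 1 arrays of the control genotype left out (40). Without 1 array they ranged from 3 to 39, while calls over all features, 796 in the main fit, ranged from 143 to 1547. Calls in the stimulated against resting knockout comparison, 27 in all, became 6 with median scaling and 12 with no filter, and ranged from 18 to 29 without 1 array. The interaction, with 0 calls, gave 2 with quantile normalization, 1 each with median scaling, normexp and the slide as a block, 11 with the percentile of detected spots, 9 with the filter on all 12 arrays, 10 with trend and robust settings, and 0 to 6 without 1 array. The stimulated against resting control count ranged from 38 to 45 without 1 array, and the resting genotype count was 0 in every alternative run. With the replicate number as a block, the same replicate effects were fitted to all 4 groups. This also tied the resting groups and the knockout groups, which were not taken as paired. The counts were 39 between the stimulated groups, 45 between the control groups, and 27, 0 and 0 for the other comparisons. So the block moved no count by over 1.5 times. Scaling moved the median of all features in the stimulated genotype comparison to between -0.58 and 0.39. The median of the 50 genes relative to it ran from -1.16 to -0.76 over all settings, and was -0.76 with the filter on all 12 arrays. Rpn1 and Ssr2 were called in 22 of 25 alternatives, Kdelr2 and Spcs2 in 21, and 9 genes in none. Alternatives were also followed for 36 single-gene results, picked by the rule for values on every array. Of their values, 717 kept direction and side of the threshold, 155 lost the call, 19 gained it and none changed sign. Among all 50 genes some signs did turn. Srp14 turned positive between the stimulated groups under quantile normalization and the percentile of detected spots. Between the resting groups 10 to 48 genes were negative over the settings, against 43 in the main fit. The cause of these moves was not tested. Signal over background limited Kdelr3, Copg1, Sec24a and Sec24d.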
